A study of Mus musculus with 78 samples.

Results

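Oxidative phosphorylation is carried out by 5 complexes of the inner mitochondrial membrane, and the messenger RNAs of their nuclear-encoded subunits were followed in mouse brain across 3 ages and a set of mutants. The genes were taken by symbol, as all those beginning with Ndufa, Ndufb, Ndufc, Ndufs, Ndufv, Uqcr, Cox4 to Cox8 or Atp5, together with Sdha, Sdhb, Sdhc and Sdhd. This gave 90 genes of the 18194 that the arrays measured, and each was read from the brightest of its probe sets by the mean of all 78 arrays. They comprise 6 core and 28 other subunits of complex I, 8 complex I assembly factors whose names begin with Ndufaf, 4 subunits of complex II, 8 of complex III, 9 common subunits and 7 restricted isoforms of complex IV, and 5 F1 head, 3 c-ring and 9 other genes of complex V. The remaining 3 are Ndufa4 and its relative Ndufa4l2, which are named for complex I although NDUFA4 sits in complex IV, and Cox7a2l, a factor that joins complexes III and IV into supercomplexes.

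Complexes I and II feed electrons from NADH and succinate into coenzyme Q, complex III hands them to cytochrome c, and complex IV passes them to oxygen. Complexes I, III and IV pump protons as they do so, and complex V, the ATP synthase, uses the returning protons to turn its c-ring and make ATP in its F1 head. Neurons rely on this pathway for the ATP that restores ion gradients after electrical activity, and brain oxygen use increases while synapses form after birth. The mitochondrial genome encodes further subunits, which are not among these genes.

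Brain RNA was hybridised from embryos of day 14 (E14), newborn pups (P0) and pups of postnatal day 14 (P14), with 3 arrays in each of 26 groups. Wild types were of mixed background A and mixed background B at every age and of an inbred 129s6 background at P0 and P14. Mutants with a null allele (ko/+) or a null over a conditional allele (ko/cko) of Lis1, whose product regulates the motor dynein, and of Ndel1, whose product binds LIS1, were sampled at every age. Ndel1 is written Ndel or nudel in the labels. Dcx ko/Y, which lack a microtubule protein of migrating neurons, were sampled at E14 and P0, and 14-3-3 epsilon ko/ko, lacking a protein that binds NDEL1, at E14 and, inbred, at P0. Further groups were inbred Ndel1 ko/+ at P0 and Ndel1 ko/+ labelled with a mix background at P14. The labels call the arrays of a group biological replicates. They name neither the Cre driver acting on the conditional alleles nor the mixed background of each mutant, so mutants were set against both mixed wild types, and the inbred ones against the inbred wild type.

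Several libraries stood apart or went against their label. Among the E14 arrays, replicates 1 and 2 of the set labelled 14-3-3 epsilon ko/ko kept Ywhae, the gene for 14-3-3 epsilon, and the arrays labelled Ndel1 ko/cko held more Ndel1 than Ndel1 ko/+. This held at P0 too, with 9.51, 9.63 and 9.53 in Ndel1 ko/cko and 9.40, 9.33 and 9.27 in Ndel1 ko/+. The Lis1 gene Pafah1b1 was no lower at P0 in Lis1 ko/cko (10.01, 10.09 and 10.12) or Lis1 ko/+ (10.18, 9.91 and 9.94) than in mixed B (10.11, 9.81 and 9.93), although lower than in mixed A (10.44 to 10.57). Inbred Ndel1 ko/+ at P0 and mix-labelled Ndel1 ko/+ at P14 held no less Ndel1 than wild type, and at P0 replicate 2 of the set labelled Dcx ko/Y held Xist. At E14, 6 arrays had low levels of hindbrain and meninges genes, namely replicate 2 of the set labelled 14-3-3 epsilon ko/ko, replicates 1 and 3 of Lis1 ko/cko, replicate 1 of Lis1 ko/+ and replicates 2 and 3 of mixed A. All 6 neuronal markers were above the filter in every group, as the label of brain asks. The values appear to have been normalized separately at each age, and differences between ages are therefore also given relative to the median gene.

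Between P0 and P14 most of the respiratory chain and ATP synthase genes rose in wild-type brain. In the mixed backgrounds 68 of 87 tested members were higher at P14, 1 was lower and 18 were not called. A call requires the same direction in mixed A and mixed B, and an adjusted p under 0.05 for the larger p of both (limma, Benjamini-Hochberg). Over all 12865 genes tested, 34.3% were called higher and 22.1% lower. The median member differed by 0.49 log2 units and the median gene by 0.13, so the members lay 0.36 above it, and 77 of 87 were above the median gene. After quantile normalization over all ages 55 members were higher and 2 lower, beside 30.3% and 26.3% of all genes, and the members lay 0.37 above the median gene. Taken alone, mixed A had 77 members higher and 2 lower, beside 44.2% and 27% of all genes, and mixed B 73 and 1, beside 39.3% and 30%. In 58 members every P14 array was above every P0 array within both backgrounds, which held for 29% of all genes, and 1 member, Cox7c, was separated downward, beside 17.6%. Cox7a1, Cox7b2 and Ndufb4 never reached the level required for testing, a group mean of 5.253, which was the median of all values. Their highest group means were 5.14, 4.25 and 4.20. A gene can pass this filter through its P14 level alone, which favours genes that are higher there, so the counts describe the tested members and not all 90.

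**Figure D1:**
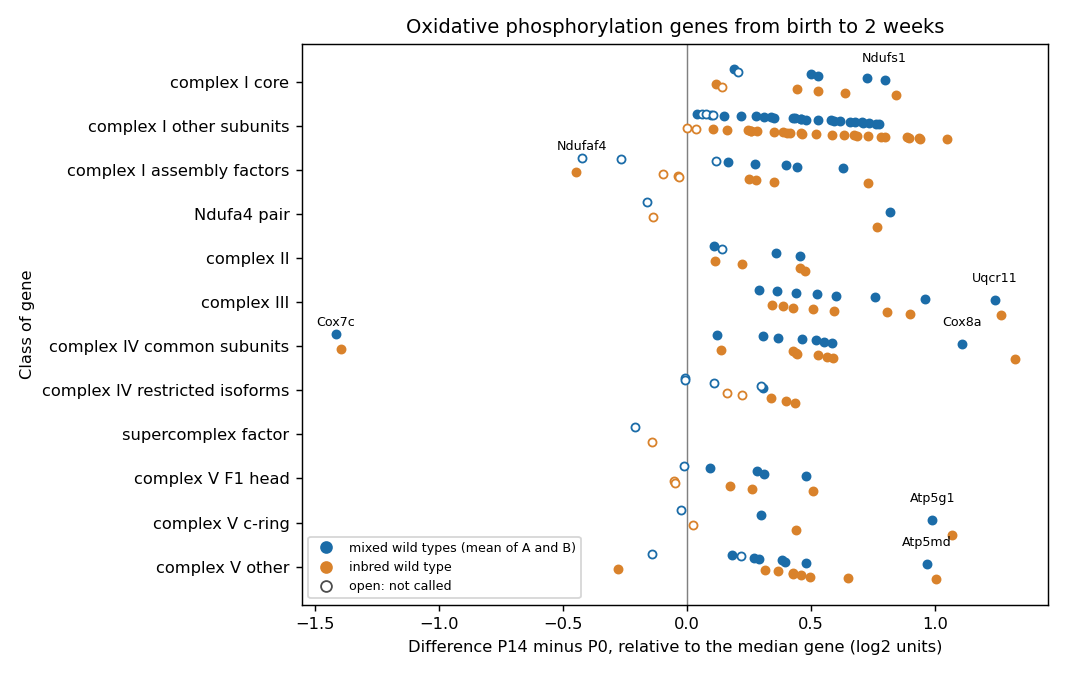
Difference between P14 and P0 for each tested member, in log2 units relative to the median gene (horizontal axis), by class of gene (vertical axis), with mixed wild types in blue, the inbred wild type in orange and uncalled members open. Most classes lie to the right of 0, with Uqcr11 and Cox8a farthest right and Cox7c farthest left.

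Complex III was a class in which every member rose, 8 of 8 as deposited and 7 of 8 after quantile normalization over all ages, with a class median 0.56 log2 units above the median gene. Uqcr11, a small accessory subunit, had the largest rise of all members. Its level in the 6 mixed wild-type arrays was 10.31 to 10.60 at P0 (median 10.45) and 11.57 to 12.03 at P14 (median 11.83). The arrays of both ages were thus well separated. The difference was 1.37 ± 0.06 log2 units (mean ± SE, n = 3 arrays per group and background, limma adjusted p = 1.57e-14). Uqcrq, the subunit that sits beside cytochrome b, went from 10.44 to 10.64 at P0 to 11.34 to 11.88 at P14, a difference of 1.09 ± 0.07. Uqcr10, another small subunit, differed by 0.89 ± 0.06. Both were separated between ages in every array.

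In complex I the core subunits, among them those that carry the electron-transfer centres, rose in 5 of 6 cases, with a class median 0.52 above the median gene. Ndufs1, the large iron-sulphur subunit, was at 9.82 to 10.05 at P0 and 10.67 to 11.14 at P14, and rose by 0.93 ± 0.07 (limma adjusted p = 3.93e-10). Ndufs7 rose by 0.86 ± 0.07 and Ndufs8 by 0.66 ± 0.07, both iron-sulphur subunits of the arm that reduces coenzyme Q. Ndufv1, the flavin-bearing subunit, missed the threshold (limma adjusted p = 0.055). Of the other subunits 24 of 27 rose, with the largest differences in Ndufa3 (0.91 ± 0.07), Ndufs5 (0.89 ± 0.13) and Ndufa13 (0.86 ± 0.06). Ndufa6, Ndufa7 and Ndufc2 were the uncalled ones. The assembly factors behaved less uniformly. Of these, 5 of 8 rose, led by Ndufaf1 (0.76 ± 0.13), Ndufaf8 (0.58 ± 0.09) and Ndufaf7, whereas Ndufaf4 (-0.29 ± 0.10), Ndufaf6 (-0.14) and Ndufaf2 (0.25) were not called.

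Complex II, the succinate dehydrogenase that also serves the citric acid cycle, had 3 of 4 members called as deposited and 1 of 4 after quantile normalization. The flavoprotein gene Sdha was at 10.13 to 10.42 at P0 and 10.65 to 11.05 at P14, and rose by 0.59 ± 0.06 (limma adjusted p = 2.17e-07). The membrane anchor Sdhd rose by 0.49 ± 0.07 and the iron-sulphur subunit Sdhb by 0.24 ± 0.06. Sdhc, the other anchor, was 0.27 higher and not called.

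Of the common complex IV subunits 8 of 9 rose. Cox8a, a small subunit of the membrane part, was at 10.88 to 10.98 at P0 and 11.94 to 12.44 at P14. Its groups were far apart, with a difference of 1.24 ± 0.05 (limma adjusted p = 1.46e-13). Cox6c rose by 0.72 ± 0.04 and Cox5b, which faces the matrix, by 0.68. Cox7c was the exception. Its P0 values were 6.25 to 7.82 (median 6.36), and at P14 they were 5.27 to 5.64. The P14 values lie close to the filter of 5.253, so the size of change of Cox7c is not dependable. It fell by 1.28 ± 0.22 log2 units (limma adjusted p = 0.00183), and the highest P0 value came from mixed A replicate 3. The Cox7c probe set shares probes with other transcripts, as its name states, and with such probe sets left out no member was called lower. A second, dimmer Cox7c probe set differed by -0.67, and how well either probe set reports the gene was not tested.

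In complex V the c-ring gene Atp5g1 stood out, at 10.76 to 11.01 at P0 and 11.72 to 12.25 at P14, a rise of 1.12 ± 0.08 (limma adjusted p = 8.75e-11). Atp5g1, Atp5g2 and Atp5g3 encode the same mature c subunit behind different import sequences. Atp5g3 rose by 0.43, and Atp5g2 was 0.11 higher and not called. Of the F1 head genes 4 of 5 rose, among them Atp5d (0.61 ± 0.05), Atp5b (0.44) and Atp5c1 (0.41), which encode the delta, beta and gamma subunits, while Atp5e was 0.12 higher and not called. Of the other subunits 7 of 9 rose. Atp5md, a small membrane subunit linked to ATP synthase dimers, was at 10.69 to 10.93 at P0 and 11.70 to 11.99 at P14, and rose by 1.10 ± 0.07. Atp5l, subunit g of the membrane part, rose by 0.61 ± 0.06. Atp5o, which encodes the stalk subunit OSCP, differed by -0.01 and was not called.

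Promoters were taken from RefSeq (build GRCm38.p6) for 74 of the 90 genes, matched by gene ID, and are shown because genes of this pathway are known targets of NRF1 and of the ETS factor GABPA. In the 300 bases from 250 before to 50 after the start, the NRF1 core TGCGCA occurred in 24.1% of 79 member promoters and in 7.76% of all 32851 promoters of the table. The ETS core CCGGAAG, searched on both strands like the other motif and written CTTCCGG on the opposite one, occurred in 24.1% and 8.86%, and both together in 5.06% and 1.28%. A match is a description of the letters and not a bound site. The 250 bases before the start are printed for the 2 genes with the largest rise and for the 4 members with both motifs, all on the minus strand and written 5′ to 3′ along the gene, with matches in capitals. Uqcr11 lies at chr10:80406822-80407071, Cox8a at chr19:7217617-7217866, Atp5l at chr9:44920743-44920992, Cox6a1 at chr5:115348959-115349208, Ndufb6 at chr4:40279422-40279671 and Sdhd at chr9:50603850-50604099.
Uqcr11: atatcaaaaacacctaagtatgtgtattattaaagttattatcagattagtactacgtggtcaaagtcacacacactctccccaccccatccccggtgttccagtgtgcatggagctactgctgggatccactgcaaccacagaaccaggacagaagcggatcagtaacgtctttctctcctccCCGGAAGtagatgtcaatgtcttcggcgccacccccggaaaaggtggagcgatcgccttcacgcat
Cox8a: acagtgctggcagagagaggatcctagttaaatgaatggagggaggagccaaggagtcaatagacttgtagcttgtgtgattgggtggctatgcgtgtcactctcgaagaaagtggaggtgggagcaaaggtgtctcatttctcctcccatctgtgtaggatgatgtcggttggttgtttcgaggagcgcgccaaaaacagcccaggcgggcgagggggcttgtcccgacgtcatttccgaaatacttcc
Atp5l: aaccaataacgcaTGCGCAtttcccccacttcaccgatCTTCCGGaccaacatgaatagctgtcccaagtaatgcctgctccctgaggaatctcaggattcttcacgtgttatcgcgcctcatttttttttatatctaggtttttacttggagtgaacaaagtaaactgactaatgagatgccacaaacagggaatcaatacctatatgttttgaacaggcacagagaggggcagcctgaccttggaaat
Cox6a1: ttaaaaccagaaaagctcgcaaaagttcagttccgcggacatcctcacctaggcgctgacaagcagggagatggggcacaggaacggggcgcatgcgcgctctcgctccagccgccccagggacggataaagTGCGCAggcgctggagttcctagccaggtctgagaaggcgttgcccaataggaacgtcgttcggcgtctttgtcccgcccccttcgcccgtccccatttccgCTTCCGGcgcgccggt
Ndufb6: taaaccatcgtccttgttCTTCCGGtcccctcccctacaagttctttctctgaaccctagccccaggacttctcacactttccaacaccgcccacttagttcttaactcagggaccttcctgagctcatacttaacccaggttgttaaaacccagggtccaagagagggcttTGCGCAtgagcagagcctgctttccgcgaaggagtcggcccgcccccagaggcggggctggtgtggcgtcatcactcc
Sdhd: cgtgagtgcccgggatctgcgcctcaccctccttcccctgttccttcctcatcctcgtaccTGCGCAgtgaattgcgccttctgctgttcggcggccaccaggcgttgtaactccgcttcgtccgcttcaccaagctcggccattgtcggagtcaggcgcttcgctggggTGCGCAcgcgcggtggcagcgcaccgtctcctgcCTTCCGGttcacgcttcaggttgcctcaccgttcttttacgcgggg
Uqcr11 holds 1 ETS core in this stretch, Sdhd holds 2 NRF1 cores and 1 ETS core, and Atp5l, Cox6a1 and Ndufb6 hold 1 of each. Cox8a has no match in the stretch printed and 2 ETS cores in the whole 300-base window. Among promoters of members that rose at P14, 22.6% held the NRF1 core and 29% the ETS core. Among promoters of the other matched members these shares were 29.4% and 5.88%, of only 17 promoters.

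Most members rose in the inbred wild type too. There 71 members were higher at P14 and 3 lower, against 38% and 33.8% of all genes, and 65 members rose in mixed and inbred backgrounds alike, beside 31% of all genes. Cox8a went from 11.04, 11.07 and 11.09 at P0 to 12.38, 12.53 and 12.38 at P14 (difference 1.36 ± 0.05, limma adjusted p = 1.25e-15). Uqcr11 went from 10.69, 10.56 and 10.72 to 11.98, 11.98 and 11.94 (1.31 ± 0.06). The same genes led as in the mixed backgrounds, with Atp5g1 at 1.11 and Atp5md at 1.05, joined by Ndufa1, a small membrane subunit of complex I, at 1.09 ± 0.06. Cox7c fell again, from 6.39, 6.001 and 6.04 to 4.50, 4.88 and 5.002, the P14 values all below the filter of 5.253. Ndufaf6 fell by 0.40 ± 0.14 and Atp5o by 0.23 ± 0.06, which were not called in the mixed backgrounds. Whether the step differs between the inbred and mixed backgrounds was not tested.

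The step could be followed in 7 genotypes with arrays at both ages, and the members lay above the median gene by 0.38 log2 units in mixed A, 0.38 in mixed B, 0.43 in the inbred wild type, 0.41 in Lis1 ko/+, 0.42 in Lis1 ko/cko, 0.30 for the Ndel1 ko/+ and 0.46 for the Ndel1 ko/cko brains. In each of these between 75 and 77 of 87 members were above it. Uqcr11 was 1.09 to 1.29 above the median gene and Cox8a 0.95 to 1.32, while Cox7c was below it in all 7 (-1.87 to -0.49). Mean member level minus the mean of all tested genes was 2.79 to 3.09 in the 24 arrays at E14, 2.82 to 3.05 in the 30 at P0 and 3.19 to 3.33 in the 24 at P14. No P14 array thus overlapped with any earlier one, in any genotype.

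**Figure D2:**
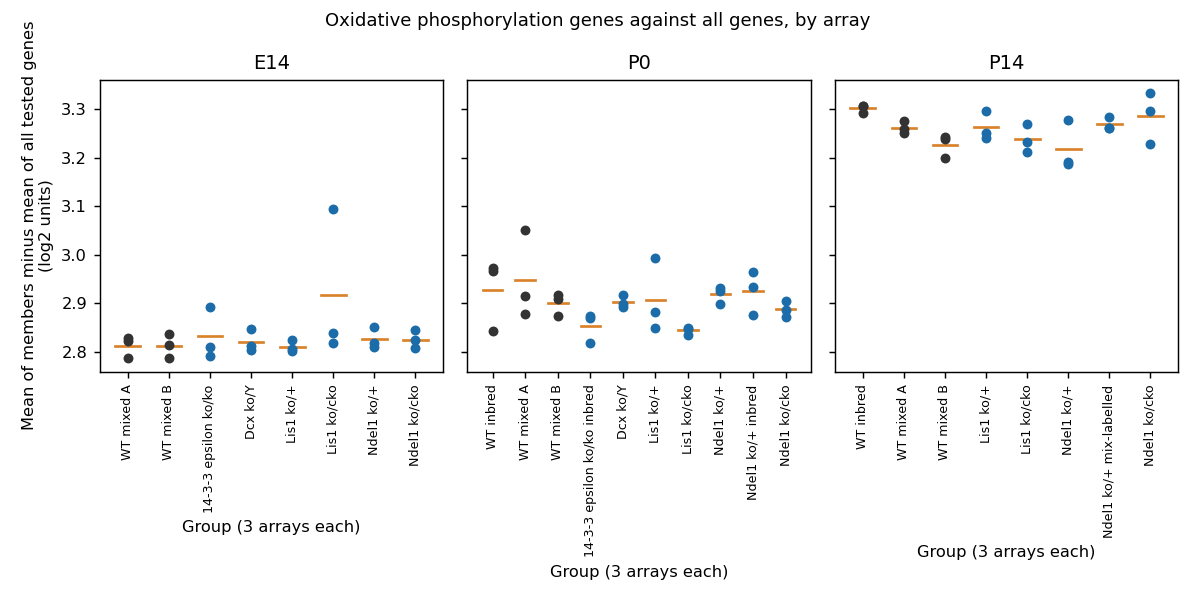
Mean log2 level of the members minus that of all tested genes, in log2 units (vertical axis), in each of the 78 arrays by group and age, with wild types in black, mutants in blue and group means as bars. Every P14 array (3.19 to 3.33) lies above every E14 and P0 array, and Lis1 ko/cko replicate 3 at E14 (3.09) stands apart from its group.

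Other measures moved with age as well. The 3' minus the 5' signal of actin, which rises with RNA breakdown or short labelling, was 0.11 to 0.24 at E14, 0.12 to 0.45 at P0 and 0.50 to 0.96 at P14, and the ages P0 and P14 did not overlap. The same measure of Gapdh did overlap, at -0.20 to 0.011, -0.19 to 0.13 and -0.11 to 0.12. All 6 markers of synapse maturation, 4 of 4 of myelin, 4 of 5 of astrocytes and 5 of 5 of microglia rose between P0 and P14, and 6 of 6 tested cell cycle genes fell. The mean level of the myelin markers was 4.93 to 5.07 at P0 and 8.42 to 9.53 at P14 in the mixed wild types, and that of synapse markers 8.40 to 8.62 and 11.11 to 11.56. The part of cell composition and RNA integrity in the rise was not tested, and in RNA of whole tissue more cells of a type and more RNA per cell cannot be told apart.

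Between E14 and P0 the same genes did not rise together. As deposited, 4 members were higher at P0, 24 lower and 59 not called, beside 14.8% of all genes higher and 35% lower, but with quantile normalization over all ages the counts were 34 higher and 3 lower, beside 26% and 19.8% of all genes. The median gene itself was 0.19 lower at P0 as deposited, and the median member 0.06 lower. Relative to the median gene the members lay 0.13 higher under both normalizations, with 58 of 87 above it as deposited. As deposited 31 of 87 members lay above 0 and after quantile normalization 70, so that 39 changed sign with the scaling between ages and 48 kept it. Taken alone, mixed A had 21 members higher and 33 lower, beside 25.1% and 43.4% of all genes, and mixed B 6 and 34, beside 17.3% and 44.5%. Not overlapping between ages in either background were 5 members that were higher, beside 14.4% of genes, and 23 lower, beside 33.2%.

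The members higher at P0 were Cox4i2, Cox6a2, Atp5md and Cox8a. Cox4i2, the isoform of Cox4 known from lung and from oxygen-sensing cells, was at 4.41 to 4.66 at E14 and 4.79 to 5.13 at P0 (0.48 ± 0.11, limma adjusted p = 0.00106). All of these values lie below the filter of 5.253, which Cox4i2 passed through the inbred P14 arrays alone, so its size of change is not dependable. Cox6a2, the isoform of heart and skeletal muscle, was at 6.39 to 6.66 and 6.71 to 7.06 (0.45 ± 0.14, limma adjusted p = 0.0324). Both were called under quantile normalization too. Without the 6 E14 arrays of low hindbrain level Cox6a2 and Cox8a lost their call, but mixed A then kept only replicate 1 at E14. Atp5md rose by 0.33 ± 0.07, and it and Cox8a (0.18 ± 0.05) were the only members called higher in both steps. Averaged over its probe sets Cox8a turned to -0.022.

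Cox7c had the largest fall, from 7.23 to 7.93 at E14 to 6.25 to 7.82 at P0 (-0.90 ± 0.22, limma adjusted p = 0.00295), and was the only member called lower in both steps. Its dimmer second probe set differed by -1.45. Ndufb3, a membrane-arm subunit of complex I, was at 10.46 to 10.60 and then 9.81 to 10.13 (-0.54 ± 0.08). Uqcrh, the hinge protein that helps complex III meet cytochrome c, was at 11.88 to 11.99 and then 11.33 to 11.62 (-0.51 ± 0.06). Cox7c, Ndufb3 and Uqcrh were the 3 members that remained lower under quantile normalization. Atp5h, subunit d of the ATP synthase stalk, differed by -0.53 ± 0.05 as deposited and by 0.065 after quantile normalization. Signs also turned for Atp5a1 (-0.17 to 0.084), Atp5g3 (-0.25 to 0.014) and Ndufs7 (-0.26 to 0.0047).

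From E14 to P0, 24 of 87 members were lower as deposited, beside 4509 of 12865 genes, and the median gene differed by -0.19. The differences below are not relative to it. By class, the lower calls as deposited were 9 of 27 in the other complex I subunits, led by Ndufb3, Ndufc1 (-0.44) and Ndufa2 (-0.40). In the complex I core there was 1 of 6, Ndufs7. The lower calls were 1 of 8 in the assembly factors (Ndufaf1, -0.45 ± 0.13), 2 of 4 in complex II (Sdha, -0.44 ± 0.06, and Sdhc, -0.30) and 1 of 8 in complex III. Complex V had 2 of 3 in the c-ring, Atp5g2 (-0.33) and Atp5g3, 2 of 5 in the F1 head, Atp5d (-0.28) and Atp5a1, and 4 of 9 others, led by Atp5h, Atp5j (-0.43 ± 0.05) and Atp5pb (-0.40). After quantile normalization complex V had 0 lower members and complex II 0, beside 19.8% of all genes. Higher were 12 of 27 other complex I subunits and 6 of 9 common complex IV subunits, beside 26% of all genes. Cox7a2l, the supercomplex factor, was at 11.28 to 11.43 at E14 and 10.83 to 11.17 at P0 (-0.31 ± 0.06, limma adjusted p = 0.0016). As deposited, 19 of the 87 members were called lower at birth and higher at P14, 47 were not called before birth and higher after, and 12 were called in neither step. These are 21.8%, 54% and 13.8% of the members, beside 7.31%, 18.2% and 23.1% of all genes. After quantile normalization only 3 members were lower from E14 to P0, so the count of 19 depends on the scaling between ages. From E14 to P14 the median member differed by 0.40 and the median gene by -0.07, with 79 of 87 members above it.

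Isoform pairs were followed next. Complex IV holds several subunits with a common form and a form known from muscle, lung or testis, and their levels are given within each gene only, since probe sets of different genes are not comparable. As deposited Cox4i1 differed by -0.03 before birth, where the median gene differed by -0.19. Cox4i1 then rose to 12.86 to 13.10 at P14, from 12.27 to 12.37 at P0. Cox4i2, below the filter in all E14 and P0 arrays of the mixed wild types, was 0.13 higher at P14 than at P0 and not called. Cox6a1 differed by -0.14 before birth and rose afterwards, while Cox6a2 was 0.43 higher at P14 (limma adjusted p = 0.352), with 7.05 to 7.99 over the mixed arrays. Cox6a2 rose in mixed A on its own (0.69) and in the inbred wild type (0.44), and was 0.17 higher in mixed B.

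Cox6b1, common, and Cox6b2, known from testis, differed by 0.01 and 0.16 before birth. After birth Cox6b1 rose, and Cox6b2 was 0.24 higher and not called. Cox8b, the form of heart and skeletal muscle, was at 4.50 to 5.11 at P0 and 5.03 to 5.47 at P14 and rose by 0.44 ± 0.13 (limma adjusted p = 0.0147), and by 0.48 in the inbred wild type. It lay below the filter of 5.253 at P0 and passed through its P14 level. Cox8c, known from testis, was 0.13 higher in the mixed wild types and not called, and rose by 0.38 in the inbred one. As deposited 1 of 5 tested restricted forms was called higher at P14 in the mixed wild types, against 8 of 9 common subunits, and after quantile normalization 0 of 5 and 8 of 9, a difference that was not tested. Muscle markers moved too, with a list mean of 4.34 to 4.57 at P0 and 4.87 to 5.03 at P14 in the mixed wild types, and 3 of 4 tested genes rose (2 after quantile normalization). Their part in the level of Cox8b was not tested.

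Ndufa4, the complex IV subunit once placed in complex I, was at 11.20 to 11.57 at P0 and 12.19 to 12.48 at P14 and rose by 0.95 ± 0.05 (limma adjusted p = 1.2e-12). Its relative Ndufa4l2, which replaces it in low oxygen, was at 6.27 to 6.85 at E14, 5.93 to 6.47 at P0 and 5.85 to 6.50 at P14. Its differences of -0.39 and -0.03 were not called.

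**Figure D3:**
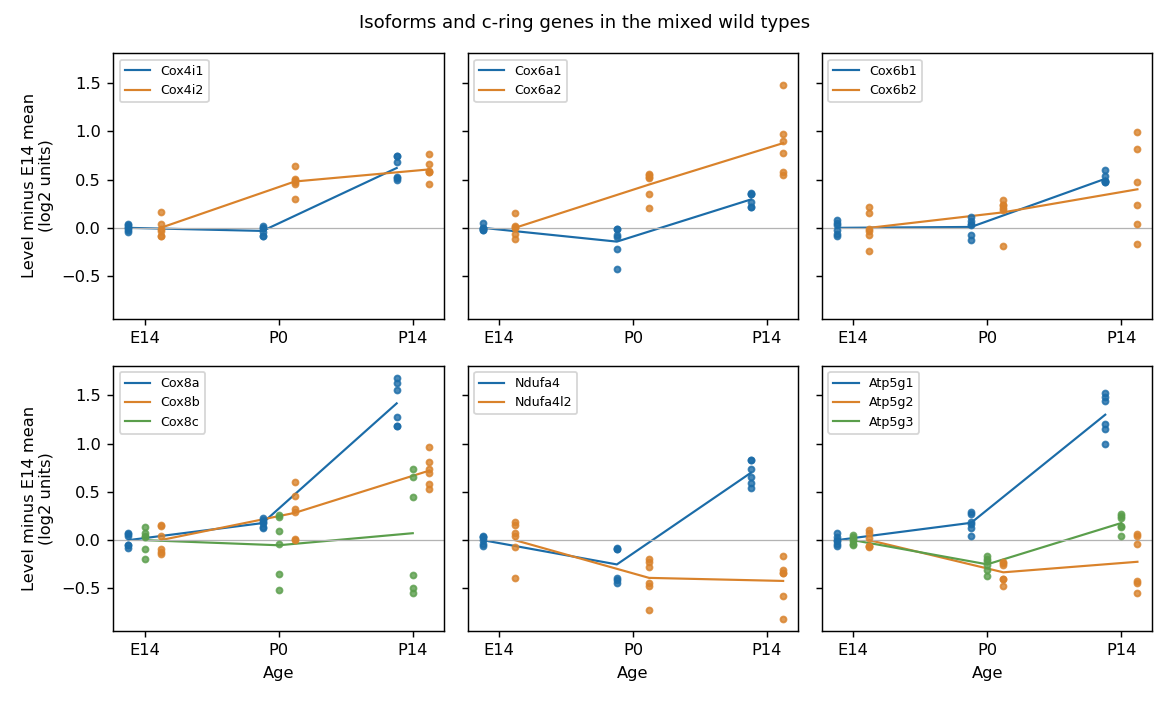
Level minus the gene's own E14 mean, in log2 units (vertical axis), at 3 ages (horizontal axis) for isoform pairs of complex IV, the Ndufa4 pair and the c-ring genes, with points for the 6 mixed wild-type arrays and lines through means. Cox8a, Ndufa4 and Atp5g1 turn upward at P14, while the Cox4i2 points are higher at P0 than at E14, all below the filter of 5.253, and the Cox8c arrays fall into separate clusters at P14.

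Genes that supply or build the chain were read from lists. Of 18 tested genes of the citric acid cycle and pyruvate entry 15 rose between P0 and P14, led by Mdh1 (1.30), Dlat (1.27) and Ogdh (1.18), and 0 fell. Of 9 genes of exchange across mitochondrial membranes 8 rose, with the mitochondrial creatine kinase Ckmt1 at 2.49 and the phosphate carrier Slc25a3 and adenine nucleotide carrier Slc25a5 at 0.85. Electron carriers rose in 7 of 14 cases, led by the coenzyme Q genes Coq9 (1.05), Coq2 (1.02) and Coq8a (0.98), and Coq6 fell by 0.36. Other assembly factors rose in 16 of 33 cases, such as the copper chaperone Cox17 (1.65) and Coa6 (1.40), and fell in 2, Sco1 (-0.71) and Cox20 (-0.44). Genes of the mitochondrial ribosome, which makes the mitochondrially encoded subunits, rose in 27 of 76 cases and fell in 6, and after quantile normalization in 20 and 11. These shares stand beside the 34.3% and 22.1% of all genes given above.

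Regulators split. The coactivators Ppargc1b (2.18) and Ppargc1a (1.11) and the nuclear receptor Esrra (0.94) rose between P0 and P14, whereas the ETS subunits Gabpb1 (-1.09) and Gabpa (-0.81) and the factor Yy1 (-0.74) fell. In all 4 of 13 rose and 5 fell, where 4410 of the 12865 genes tested were higher and 2848 lower. Between E14 and P0 Ppargc1b (0.90) and Ppargc1a (0.81) rose as well, and Gabpa and Tfb1m, a methyltransferase of mitochondrial ribosomal RNA, fell by 1.27 each. In that step 2 of 13 regulators rose and 7 fell, where 14.8% of all genes were higher and 35% lower as deposited, and 26% and 19.8% after quantile normalization. All of these 4 calls held after quantile normalization. The mitochondrial ribosome had 1 of 76 higher and 34 lower before birth, but 7 and 11 after quantile normalization. The citric acid cycle had 3 of 18 higher, with the pyruvate carboxylase Pcx at 0.81, and 9 lower, led by Idh2 (-1.28), and after quantile normalization 7 and 2. The electron carriers had 0 of 14 higher and 4 lower, among them Etfb (-0.60) and Cycs, the cytochrome c gene (-0.37), and after quantile normalization 3 and 3, without Cycs (-0.11). Of the exchange genes 3 of 9 were higher and 1 lower, 6 and 1 after quantile normalization, and Ckmt1 rose before birth too (1.55), and Slc25a5 fell by 0.80.

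The mixed wild types differed from each other after birth, and the oxidative phosphorylation genes were part of that difference. At E14 no member was called between mixed A and mixed B (limma; 6 of 85 at an unadjusted p under 0.05), with 0.0426% of all genes higher and 0.0255% lower. At P0, 20 members were higher in mixed A and 8 lower, beside 18.1% and 10.7% of all genes. Without mixed A replicate 3 or mixed B replicate 1 the higher members at P0 numbered 12 and 10, and without mixed A replicate 1 the lower ones numbered 4. At P14, 45 were higher and 8 lower, beside 37.4% and 15.2%. The median member was 0.12 higher in mixed A at P0 and 0.18 at P14, and the median gene 0.04 and 0.14. Of 85 members tested at P0 and P14, 16 (18.8%) were higher and 6 (7.06%) lower in mixed A at both ages, and 0 called at both changed direction. Of the genes tested at both ages 14.8% were higher and 6.12% lower in mixed A at both. Only 0.15% went from higher to lower and 0.484% from lower to higher. The members were thus near the shares of all genes. As a test of the step itself, the change from E14 to P0 in mixed A minus that in mixed B was positive in 6 members and negative in 2, beside 6% and 4.4% of all genes. From P0 to P14 it was positive in 14, among them Uqcr10 and Cox8a, and negative in 3, among them Cox8c, beside 8.05% and 3.57%.

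The largest difference at P14 was in Cox8c. Its values were 6.50, 6.64 and 6.45 in mixed A, 7.65, 7.74 and 7.45 in mixed B and 7.08, 6.94 and 6.95 in the inbred wild type. No array of mixed A reached one of mixed B, with a difference of -1.08 ± 0.11 (limma adjusted p = 3.92e-08), and a dimmer second probe set gave -0.79. At P0 the difference was -0.50 ± 0.11, from 6.48, 6.65 and 6.97 against 7.26, 7.09 and 7.24. Uqcrc2, a core protein of complex III, was at 11.17, 11.26 and 11.39 in mixed A and 11.90, 11.84 and 11.85 in mixed B at P14 (-0.59 ± 0.07), and its second probe set gave -0.21. Ndufc1 differed by -0.55 ± 0.07 and Atp5pb by -0.84 ± 0.09, but another probe set of each gave 0.16 and 0.090, so the direction of both depends on the probe set. Ndufa12 (-0.25), Ndufa4 (-0.21), Atp5g3 (-0.14) and Atp5h (-0.13) were lower in mixed A too. For Atp5h quantile normalization gave 0.40.

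Among the members higher in mixed A at P14, Cox6b2 was at 6.77, 6.95 and 6.43 against 5.999, 5.79 and 6.19 (0.72 ± 0.16, limma adjusted p = 0.000646). Ndufa6, a complex I subunit of the LYR family, was at 10.95, 10.84 and 10.80 against 10.11, 10.04 and 10.28 (0.72 ± 0.08). Ndufa7 was at 11.85, 11.82 and 11.76 against 11.21, 11.19 and 11.21 (0.60 ± 0.06), and its other 4 probe sets gave 0.53 to 0.71. The inbred wild type held 11.75, 11.87 and 11.83 of Ndufa7, overlapping with mixed A and above every array of mixed B. Further members were Uqcr10 (0.58 ± 0.07, but -0.18 averaged over its probe sets), Sdhc (0.52 ± 0.08), Ndufaf3 (0.51), Atp5g2 (0.49 ± 0.07) and Ndufs5 (0.47). At P0 Ndufa10 led, at 10.88, 10.83 and 10.99 against 10.50, 10.54 and 10.52 (0.38 ± 0.06, limma adjusted p = 8.38e-05), followed by Ndufaf5 and Ndufa6 (both 0.35), Ndufaf4 (0.30), Ndufa8 (0.29), Ndufa7 (0.28), Atp5o and Sdhb (both 0.27). Lower at P0 were Cox8c, Ndufc1 (-0.48), Uqcrc2 (-0.39), Atp5pb (-0.35), Ndufa4 (-0.33), Cox6a1 (-0.21), Atp5h and Atp5l (both -0.19).

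**Figure D4:**
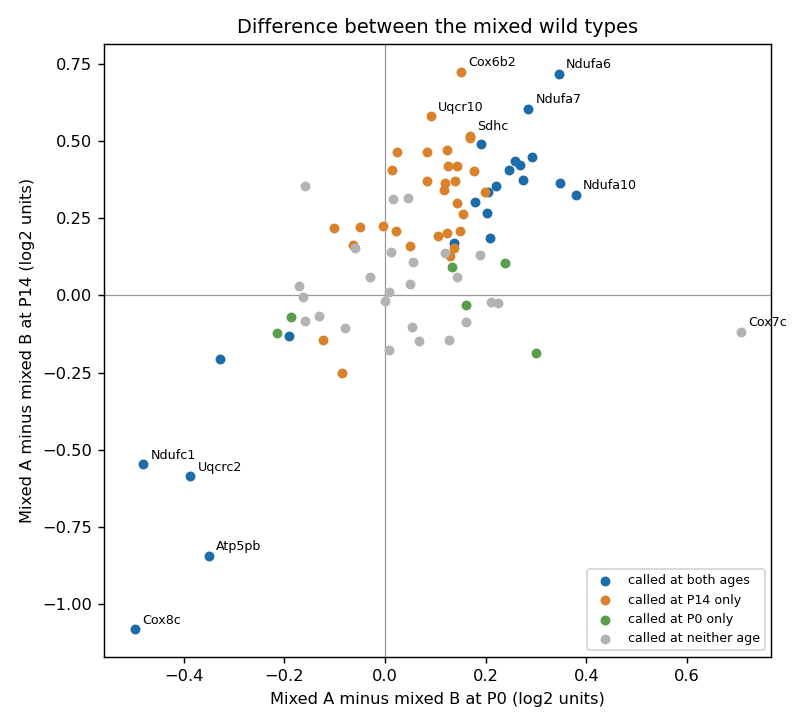
Difference between mixed A and mixed B at P0 (horizontal axis) and at P14 (vertical axis), both in log2 units, for each member tested at both ages, coloured by the age at which it was called. Of the 59 members called at either age 53 have the same sign at both, with Cox8c at -0.50 and -1.08, and 6 do not, among them Ndufaf4 at 0.30 and -0.19. The share of all genes with the same sign is not given.

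In Ndufa7 and Uqcrc2, taken from the 45 members higher and 8 lower at P14, the groups divided as the mixed wild types did. The other members were not all followed in this way. In Cox8c, with the largest difference, the inbred wild type lay between mixed A and mixed B. Ndufa7 at P14 averaged 11.81 ± 0.04 (SD, n = 3) in mixed A, 11.82 in the inbred wild type, 11.72 and 11.73 in Lis1 ko/+ and ko/cko and 11.83 in mix-labelled Ndel1 ko/+. It averaged 11.20 ± 0.01 in mixed B and 11.25 and 11.27 in Ndel1 ko/+ and ko/cko. Uqcrc2 divided the other way, with 11.27 to 11.32 in mixed A, the inbred wild type, both Lis1 groups and mix-labelled Ndel1 ko/+, and 11.77 to 11.90 in mixed B, Ndel1 ko/+ and Ndel1 ko/cko. Of the other measures some moved with this division. At P0 the actin difference was 0.27 to 0.45 in Dcx ko/Y, mixed B and the mixed-background Ndel1 mutants and 0.12 to 0.21 in the other groups. At P14 it overlapped, at 0.50 to 0.96 in mixed A and 0.66 to 0.71 in mixed B, and the Gapdh difference overlapped at P0, at -0.083 to -0.047 in mixed A and -0.19 to -0.046 in mixed B. At P14, 3 of 4 myelin markers and 4 of 5 astrocyte markers were higher in mixed A than in mixed B, with a myelin list mean of 9.35 to 9.53 and 8.42 to 8.76. At P0 and P14 the division also follows the order in which the samples are listed, and the labels name no batch. Background, RNA integrity, composition and a possible batch cannot be told apart here.

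Fewer members were called between the inbred wild type and mixed A than between it and mixed B. Against both mixed wild types no member was called at P0 (limma; 19 of 85 at an unadjusted p under 0.05, beside 0.747% of all genes called higher and 0.255% lower) or at P14 (4 of 87, beside 0.0407% and 0.203%). Against mixed B alone 39 were higher and 13 lower at P0, beside 31.6% and 13.8% of all genes. At P14 the counts were 41 and 14, beside 29.3% and 19.3%. Against mixed A alone they were 2 and 0 at P0, beside 1.77% and 0.671%, and 1 and 2 at P14, beside 0.813% and 3.39%.

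Few members were called in the mutants when both mixed wild types had to agree in direction. At E14 no member of 85 was called in Lis1 ko/+, Ndel1 ko/+, Ndel1 ko/cko, Dcx ko/Y or 14-3-3 epsilon ko/ko, with 0 at an unadjusted p under 0.05 in each, nor in Lis1 ko/cko, with 22 (limma). Over all genes 0.017% were called higher and 0.017% lower in Ndel1 ko/+, 0.0341% and 0.00851% in Dcx ko/Y, and 0% in the other 4 comparisons. In Lis1 ko/cko at E14 the median member lay 0.10 above the median gene, with 77 of 85 members above it, and none was called. The mean member level minus that of all genes was 3.09 in replicate 3 and 2.82 and 2.84 in the other two. Replicates 1 and 3 are both arrays of low hindbrain level. Without replicate 1, which leaves replicate 2 and the outlying replicate 3, 14 members were called against the mixed wild types and 38 against Lis1 ko/+. Of the runs that left out 1 array, 1 of 9 moved the first count and 1 of 6 the second. The share of all genes called in these runs is not given, so the counts are not read as a result about the members. Against Lis1 ko/+ 0 were called with all arrays (39 at an unadjusted p under 0.05, and 0.0255% of all genes higher and 0.017% lower). Leaving out all 6 such arrays keeps only replicate 2 of Lis1 ko/cko and replicate 1 of mixed A, so no count is given.

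At P0 no member was called in Lis1 ko/+ (0 at an unadjusted p under 0.05), Lis1 ko/cko (14), Dcx ko/Y (2), inbred Ndel1 ko/+ (23) or inbred 14-3-3 epsilon ko/ko (30), by limma over 85 members. Over all genes at most 0.195% were called higher and 0.306% lower in these comparisons. In inbred 14-3-3 epsilon ko/ko the median member lay -0.083 from the median gene, and 12 of 85 members were above it. Uqcr10 was at 10.72, 10.76 and 10.75 in that mutant and at 10.95, 10.93 and 11.16 in the inbred wild type (-0.27 ± 0.07, limma adjusted p = 0.3005). It was named after its values were seen, and its groups did not overlap although it was not called. The mean member level minus that of all genes was 2.82, 2.87 and 2.87 in the mutant and 2.97, 2.84 and 2.97 in the wild type, so these groups overlapped.

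Against a single wild type the counts at P0 were larger. Ndel1 ko/+ had 12 members higher and 25 lower than mixed A, beside 15.2% and 27.7% of all genes, Ndel1 ko/cko 11 and 26, beside 14.4% and 19.4%, and Dcx ko/Y 8 and 20, beside 12.1% and 17.8%. Lis1 ko/+ had 7 higher and 9 lower than mixed B, beside 12.6% and 8.15%, and Lis1 ko/cko 5 and 15, beside 17.6% and 15.2%.

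In Ndel1 ko/+ the c-ring gene Atp5g2 was called against both. Its values were 10.88, 10.82 and 10.88 against 11.28, 11.29 and 11.26 in mixed A and 11.04, 11.12 and 11.11 in mixed B, below every control array (-0.32 ± 0.05, limma adjusted p = 0.0149, beside 1.43% of all genes higher and 2.62% lower). Leaving out mixed B replicate 2, mixed B replicate 3, Ndel1 ko/+ replicate 2 or Ndel1 ko/+ replicate 3 each reduced the count to 0. In Ndel1 ko/cko Atp5g2 was at 11.06, 11.10 and 11.09, within the range of mixed B, and 0.23 ± 0.05 above Ndel1 ko/+ (limma adjusted p = 0.0108, beside 5.93% of all genes higher and 3.21% lower).

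Ndufs5, a small complex I subunit with disulphide bonds, was the member called in Ndel1 ko/cko at P0. Its values were 10.60, 10.57 and 10.49 against 9.68, 9.86 and 9.96 in mixed A and 9.61, 9.83 and 9.69 in mixed B (0.78 ± 0.14, limma adjusted p = 0.011, beside 0.136% of all genes higher and 0.713% lower). In Ndel1 ko/+ it was at 9.65, 9.70 and 10.51, so that 1 array of that group was as high. Ndel1 ko/cko was 0.60 ± 0.14 above Ndel1 ko/+ (limma adjusted p = 0.00896), 2 groups in which Ndel1 itself went against the order of the labels. At E14 the Ndufs5 probe set was also high in single arrays, at 10.10 in mixed A replicate 2, 10.31 in Lis1 ko/cko replicate 3, 10.35 in Ndel1 ko/+ replicate 3 and 10.17 in the library labelled 14-3-3 epsilon ko/ko replicate 2. With all ages in 1 fit, or without Ndel1 ko/cko replicate 1, no member was called in Ndel1 ko/cko. Against Ndel1 ko/+, the 2 calls of Atp5g2 and Ndufs5 fell to 1 without Ndel1 ko/+ replicate 1 and to 0 without its replicate 2.

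At P14 the Lis1 ko/cko brains had 6 members called, 2 higher and 4 lower, beside 3.52% and 2.8% of all genes. Uqcrc1, the other core protein of complex III, was at 11.39, 11.44 and 11.37, above 11.26, 11.14 and 11.11 in mixed A and 10.70, 10.70 and 10.72 in mixed B (0.46 ± 0.06, limma adjusted p = 0.0193). Atp5a1, the alpha subunit of the F1 head, was at 12.80, 12.78 and 12.79, above 12.60 to 12.63 and 12.44 to 12.47 (0.26 ± 0.05). Averaged over its 3 probe sets Atp5a1 turned to -0.19. Atp5h was at 11.83, 11.74 and 11.76, below 12.01 to 12.03 and 12.10 to 12.19 (-0.31 ± 0.05, limma adjusted p = 0.00814), but at 0.025 after quantile normalization.

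Ndufaf2, an assembly factor that binds late complex I intermediates, was at 8.03, 7.91 and 8.44, below 8.54 to 8.56 and 8.48 to 8.63 (-0.43 ± 0.11, limma adjusted p = 0.021). Ndufa1 (-0.22 ± 0.05) and Ndufc1 (-0.52 ± 0.07) were lower as well, with Ndufc1 at 11.40, 11.24 and 11.47 against 11.50 to 11.68 in mixed A. The second Ndufc1 probe set lay at -0.12 relative to mixed A and at 0.038 relative to mixed B. Against Lis1 ko/+, with no wild type in the contrast, Uqcrc1 was 0.22 ± 0.06 higher (limma adjusted p = 0.0234), Atp5h 0.23 ± 0.05 lower and Ndufaf2 0.41 ± 0.11 lower, beside 5.16% and 2.86% of all genes. The Lis1 gene Pafah1b1 was no lower at P14 in Lis1 ko/cko (10.31, 10.42 and 10.34) than in Lis1 ko/+ (10.32, 10.16 and 10.15). Both groups were below mixed A (10.81 to 10.88) and mixed B (10.47 to 10.49). Single arrays moved the counts of called members. Against the mixed wild types 0 members were called without Lis1 ko/cko replicate 2, 1 without its replicate 1 or without mixed A replicate 3, and 2 without mixed A replicate 1 or 2. Against Lis1 ko/+ the 3 calls became 1 without Lis1 ko/cko replicate 1, 0 without replicate 2 and 10 without replicate 3, and they became 8 without Lis1 ko/+ replicate 1 and 1 without its replicate 2 or 3.

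**Figure D5:**
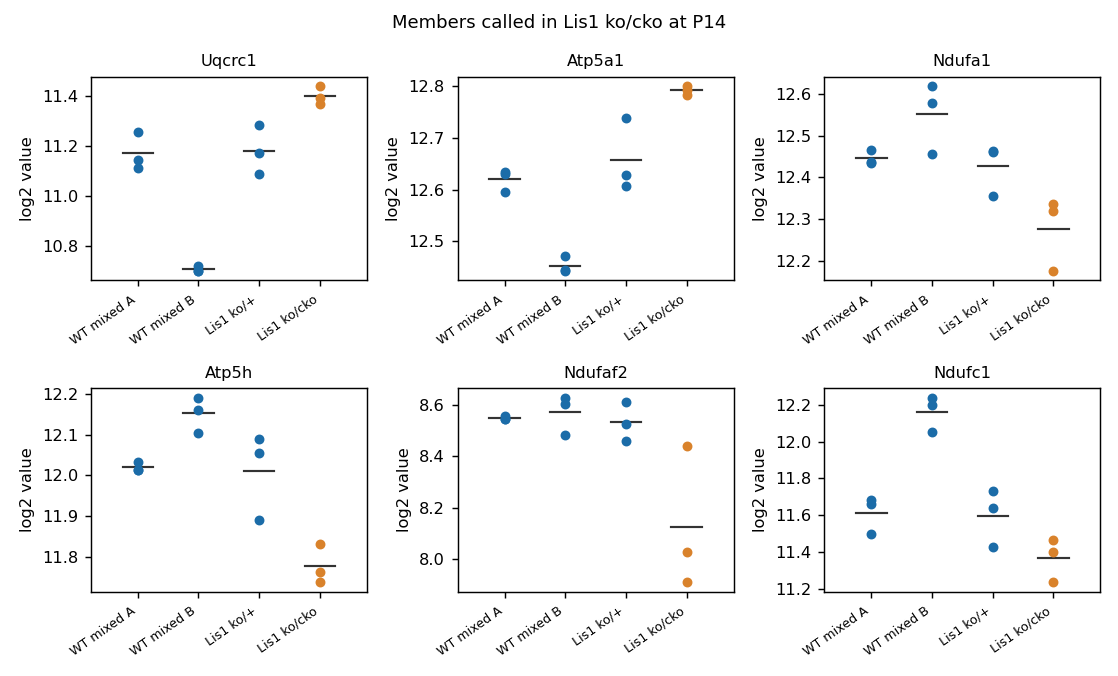
Log2 value (vertical axis) of the 6 members called in Lis1 ko/cko at P14 in the 3 arrays of mixed A, mixed B, Lis1 ko/+ and Lis1 ko/cko, with bars at group means. Lis1 ko/cko lies above all other arrays in Uqcrc1 and Atp5a1 and below the wild-type arrays in the other 4, while mixed A and mixed B are apart in Uqcrc1, Atp5a1, Atp5h and Ndufc1.

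No member was called at P14 in Lis1 ko/+ (0 of 87 at an unadjusted p under 0.05), Ndel1 ko/+ (2), Ndel1 ko/cko (2) or mix-labelled Ndel1 ko/+ (2), by limma, where at most 0.0895% of all genes were called in a direction. Against a single wild type the counts were again larger. Lis1 ko/cko had 2 members higher and 8 lower than mixed A, beside 5.74% and 8.16% of all genes, and 38 and 14 against mixed B, beside 38.4% and 21.3%. Lis1 ko/+ had 0 members called against mixed A and 41 higher and 11 lower against mixed B, beside 34.7% and 17.9% of all genes. Ndel1 ko/+ had 0 against mixed B and 6 higher and 50 lower against mixed A, beside 14.7% and 37.6%. Ndel1 ko/cko had 14 and 43 against mixed A, beside 14.3% and 38.5%, and 2 and 0 against mixed B, beside 0.0651% and 0.114%. Mix-labelled Ndel1 ko/+ had 46 and 13 against mixed B, beside 35% and 17.6%, and 0 against mixed A. Comparisons that share a wild type are not independent, and which wild type is the proper control of a mutant is not given in the labels.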

How the data were processed

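Expression was measured in 78 mouse whole-brain RNA samples, 3 in each of 26 groups, on arrays with 45101 probe sets. The deposited matrix holds log2 values that the authors normalized by RMA, per the submitters' processing notes, with the version not given in the sources used here. RMA subtracts background, forces arrays onto 1 distribution and summarises the probes of a set. Sorted values agreed far better within an age than across ages (root mean square deviation 0.0168 at E14, 0.0271 at P0, 0.0387 at P14 and 0.0948 over all), so a shift shared by all genes between ages is not measured.

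Of the probe sets 34958 name 1 gene, 932 several, 64 are controls and 9160 are unnamed here. Each of 18194 genes was read from its brightest probe set, and tested where a group mean in the fit reached 5.253. Linear models were fitted with limma 3.58.1 in R 4.3.3 (version 1.17.8 of data.table), with eBayes and trend, in wild types for ages and within an age for mutants, and p-values were adjusted over all genes tested by Benjamini-Hochberg. A call requires an adjusted p under 0.05, and, where both mixed wild types are used, the same direction in both with the larger p. The change is then the mean of both differences and the SE the larger of them. The samples are labelled biological replicates, whose spread is all that the p-values measure, and 3 arrays per group limit the precision. The model was tested on simulated data. The replicate numbers did not pair samples: of 52 pairs of groups 0 had every same-number correlation above 0.1. The text names up to 3 called members per class and direction in a step, up to 8 per direction in other comparisons, up to 3 genes per other list and all isoform pairs. The members and lists were chosen with earlier results of these data known. Alternatives were another filter, quantile normalization, the mean of probe sets, no shared probes, 1 fit, a replicate block, single controls and left-out arrays.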

Additional observations from a re-analysis of the deposited data

Results flagged for a closer look

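The change from one age to the next differed between mixed A and mixed B in some members, tested as an interaction (limma, Benjamini-Hochberg over all genes). Each value is the change in mixed A minus the change in mixed B, in log2 units, with 3 arrays per group. From E14 to P0 it was called positive in 6 members, Ndufb8 (0.39), Ndufb2 (0.38), Ndufa10 (0.30), Ndufa8 (0.30), Uqcrb (0.27), Atp5e (0.25), beside 6% of all genes, and negative in 2, Ndufc1 (-0.40), Ndufa4 (-0.29), beside 4.4% (SE 0.072 to 0.11, limma adjusted p 0.00843 to 0.0332). Leaving out 1 array moved the positive count to 1 (E14 mixed B replicate 2), 3 (E14 mixed A replicate 2 or P0 mixed B replicate 1), 2 (P0 mixed A replicate 3) or 10 (P0 mixed A replicate 2). It moved the negative count to 1 (any E14 mixed B array, P0 mixed A replicate 1 or P0 mixed B replicate 1) or 5 (P0 mixed A replicate 3). Ndufc1 differed by -0.64 in mixed A and -0.24 in mixed B, Ndufa4 by -0.40 and -0.11, and Atp5e by -0.075 and -0.32. Leaving out the 6 E14 arrays of low hindbrain level keeps only replicate 1 of mixed A at E14, so no count is given.

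From P0 to P14 it was called positive in 14 members, Uqcr10 (0.49), Sdhd (0.44), Cox8a (0.39), Uqcrc1 (0.38), Ndufa6 (0.37), Sdhc (0.35), Ndufaf3 (0.34), Ndufa7 (0.32), Atp5g2 (0.30), Atp5k (0.29), Uqcrh (0.29), Ndufv3 (0.27), Atp5d (0.23), Cox4i1 (0.18), beside 8.05% of all genes. Negative in that step were Cox8c (-0.58), Atp5pb (-0.49), Ndufaf4 (-0.49), 3 members beside 3.57% (SE 0.059 to 0.16, limma adjusted p 0.00148 to 0.0438). Cox8a rose in both backgrounds and by more in mixed A, and Cox8c differed by -0.17 between P0 and P14 in mixed A and by 0.42 in mixed B. Sdhd turned to -0.075 averaged over its probe sets. Leaving out 1 array moved the positive count to 7 (P0 mixed B replicate 2 or P14 mixed A replicate 1), 6 (P0 mixed B replicate 3 or P14 mixed B replicate 2) or 9 (P14 mixed A replicate 2 or P14 mixed B replicate 1). The negative count was 1 without P0 mixed B replicate 2 or P14 mixed A replicate 1. At P0 the 3' to 5' difference of actin was higher in mixed B (0.28 to 0.36) than in mixed A (0.15 to 0.21), and its part in these values was not tested.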

How the results depend on the processing

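Of the recomputed values of called members, leaving out single arrays aside, 1042 kept their direction and call, 97 kept the direction and lost the call, and 14 reversed. The cause was not tested. Quantile normalization over all arrays reversed Atp5h (0.065), Ndufs7 (0.0047), Atp5g3 (0.014) and Atp5a1 (0.084) from E14 to P0, and Atp5h in mixed A against mixed B at P0 (0.10) and P14 (0.40) and in Lis1 ko/cko at P14 (0.025). The mean of all probe sets reversed Cox8a from E14 to P0 (-0.022), the Sdhd interaction from P0 to P14 (-0.075), Atp5a1 in Lis1 ko/cko at P14 (-0.19), and Uqcr10 (-0.18) and Atp5h (0.096) in mixed A against mixed B at P14. Without shared probes Atp5pb reversed in mixed A against mixed B at P0 (0.15) and P14 (0.090).

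Counts of called members that moved by over 1.5 times were these. Runs without the 6 E14 arrays are not counted where they use mixed A or Lis1 ko/cko. Mixed A then keeps only replicate 1 and Lis1 ko/cko only replicate 2 at E14. From E14 to P0 the 4 higher became 2 with the stricter filter, 34 with quantile normalization and 21 with mixed A alone. The 24 lower became 3 with quantile normalization. From P0 to P14 the 1 lower became 2 with quantile normalization, the mean of probe sets or mixed A alone and 0 without shared probes, and the 3 lower in the inbred wild type became 5 with quantile normalization. The interaction from E14 to P0 had 6 positive, and 3 with the mean of probe sets. That from P0 to P14 had 14 positive, 9 with no filter and 9 with the mean of probe sets, and 3 negative, 1 with the mean.

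The replicate numbers did not pair the samples. With a replicate block the counts from E14 to P0 were 2 higher and 10 lower, the negative interaction of that step 1 and the positive interaction from P0 to P14 9, and of 147 member values 19 lost their call and 0 reversed.

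For the inbred against both mixed wild types, 0 higher at P0 became 1 with the stricter filter and 1 with quantile normalization. Against single controls the counts were 2 (mixed A) and 39 higher with 13 lower (mixed B) at P0, and 1 higher with 2 lower (mixed A) and 41 with 14 (mixed B) at P14. For mutants against mixed A alone, the counts were 1 in Ndel1 ko/+ at E14. At P0 they were 2 in Lis1 ko/cko, 37 in Ndel1 ko/+, 37 in Ndel1 ko/cko and 28 in Dcx ko/Y. At P14 they were 10 in Lis1 ko/cko, 57 in Ndel1 ko/cko and 56 in Ndel1 ko/+. Against mixed B alone there was 1 in Lis1 ko/cko at E14. The counts at P0 were 16 in Lis1 ko/+, 20 in Lis1 ko/cko and 3 in Ndel1 ko/+, and at P14 52 in Lis1 ko/+, 52 in Lis1 ko/cko, 2 in Ndel1 ko/cko and 59 in mix-labelled Ndel1 ko/+. With all arrays in 1 fit they were 0 in Ndel1 ko/cko at P0, 1 in inbred Ndel1 ko/+ at P0 and 3 in Lis1 ko/cko at P14, and between Lis1 ko/cko and ko/+ 5 at E14 and 1 at P0. Between Ndel1 ko/cko and ko/+ they were then 1 at P0 and 1 at P14. The mean of probe sets gave 1 in Lis1 ko/cko at P0, 3 in Lis1 ko/cko at P14 and 1 in Ndel1 ko/cko at P14. Quantile normalization gave 2 in Ndel1 ko/+ at P0, 4 between the Ndel1 groups at P0 and 5 between the Lis1 groups at P14, and the stricter filter 6 in the last. Without the 6 E14 arrays there were 3 in Lis1 ko/cko, 7 between the Lis1 groups and 1 between the Ndel1 groups at E14.

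Leaving out 1 array gave 3 to 4 higher and 16 to 25 lower from E14 to P0, 65 to 70 higher and 1 lower from P0 to P14, and 65 to 71 and 2 to 3 in the inbred wild type. The interactions ranged from 1 to 10 and 1 to 5 from E14 to P0, and from 6 to 18 and 1 to 4 from P0 to P14. Mixed A against mixed B gave 10 to 21 higher and 4 to 11 lower at P0, and 38 to 47 and 6 to 9 at P14. The inbred against both mixed wild types gave 0 to 1 higher at P0, from 0 with all arrays, and 1 without mixed A replicate 1 or inbred replicate 1. The counts were 0 to 14 in Lis1 ko/cko at E14, 0 to 1 at P0 for Ndel1 ko/cko, Ndel1 ko/+ and its inbred form, and 0 to 6 in Lis1 ko/cko at P14. Between the Lis1 groups they were 0 to 38 at E14, 0 to 1 at P0 and 0 to 10 at P14, and between the Ndel1 groups 0 to 2 at P0. The other mutant comparisons stayed at 0. Over these runs 1158 member values kept direction and call, 162 lost the call and 0 reversed. Precision is limited by 3 arrays a group, and by dim probe sets such as those of Cox4i2, Cox8b and, at P14, Cox7c, near the filter.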
